A study of Homo sapiens with 10 samples.

Results

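The subject of this account was the transforming growth factor-beta (TGF-β) axis of ARPE-19 cells, taken as 9 genes chosen by symbol. They were the ligand genes TGFB1, TGFB2 and TGFB3, the receptor genes TGFBR1 and TGFBR2, the signal transducer SMAD3, its inhibitory counterpart SMAD7, and the latent TGF-β binding protein genes LTBP1 and LTBP2. All 9 had a row among the 22626 rows of the deposited count table, and all 9 were among the 14936 rows that passed a filter on low counts. ARPE-19 is an established human cell line of the retinal pigment epithelium (RPE). The control group (MG, 5 libraries) received 32 mM mannitol beside 5.5 mM D-glucose, and the high glucose (HG) group (5 libraries) received 37.5 mM D-glucose, each for 48 h. The groups therefore differed in both sugars, whose effects cannot be told apart. No genetic change or other agent was named for either group. The labels do not say that the libraries came from separate cultures, so p-values measure the spread between these samples, which may be technical. MG_1 to MG_5 and HG_1 to HG_5 are the names of the deposited columns, and those of the HG group could be tied to the group but not to a single sample.

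TGF-β ligands are secreted as inactive complexes with their own propeptide. LTBP1 tethers such complexes to the extracellular matrix until integrins, proteases or thrombospondin release the ligand. The free ligand binds TGFBR2, which phosphorylates TGFBR1, and TGFBR1 in turn phosphorylates SMAD2 and SMAD3. With SMAD4 these enter the nucleus, where they induce matrix and cytoskeletal genes and also SMAD7, which closes a negative feedback loop. In the RPE the pathway is known for its part in matrix production and in the change of epithelial cells towards a contractile, mesenchymal form.

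Total counts were between 33039260 and 45864176 in the control group and between 32448991 and 44400714 in the HG group. A count of 0 would allow up to 3 counts, or 0.0654 to 0.0925 CPM (counts scaled to library size, the same total for each library), which covers counting error only. TXNIP, a gene known to rise with glucose, was at 0.809 to 1.23 CPM in the control group and 5.38 to 12.9 CPM in the HG group, so no library went against its label. Of 16 RPE markers, 12 passed the filter, among them OTX2, MITF and RLBP1, while RPE65, TYR, TTR and CDH1 did not. Of those 12, 4 (PMEL, KRT8, KRT18 and EZR) were lower in the HG group by edgeR at an adjusted p under 0.05 and 0 were higher, where all rows tested gave 7.80% lower and 7.62% higher. At an unadjusted p under 0.05 these counts were 8 and 0, where all rows gave 14.4% and 14.1%. By DESeq2 they were 6 and 0, where all rows gave 10.4% and 9.95%. BEST1, named after its values were seen, ran from 0.577 to 551 CPM among the control libraries and from 0.981 to 7.79 CPM in the HG group (log2 fold change -4.97, edgeR, adjusted p = 0.0670). The part of these markers in the results was not tested. Of 10 markers of blood, endothelial, glial, photoreceptor and fibroblast cells, 9 did not pass the filter and VWF, the other, had at most 24 counts in a library. In 2 libraries, MG_2 and HG_1, gene levels rose with GC content, by 0.170 and 0.188 log2 units per 10 percentage points of GC, against -0.0916 to -0.00519 in the other 8 libraries. These 2 libraries belong to different groups, and the calls that change without them are given both ways.

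SMAD3, TGFB2 and TGFB3 were lower in the HG group and no member was higher. LTBP1 was the 1 member that was higher at an unadjusted p under 0.05 and by DESeq2. These calls come from edgeR's quasi-likelihood test at an adjusted p (Benjamini-Hochberg, over all 14936 rows) under 0.05. Across all rows tested, 7.80% were lower and 7.62% were higher by the same rule, and 13.6% had CPM values that did not overlap between the groups, against 1 of the 9 members, SMAD3. The median log2 fold change of the members was -0.13, and that of all rows was 0.00132. CPM values here are normalized by TMM (trimmed mean of M values), and a fold change is that of the HG group against the control group.

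**Figure D1:**
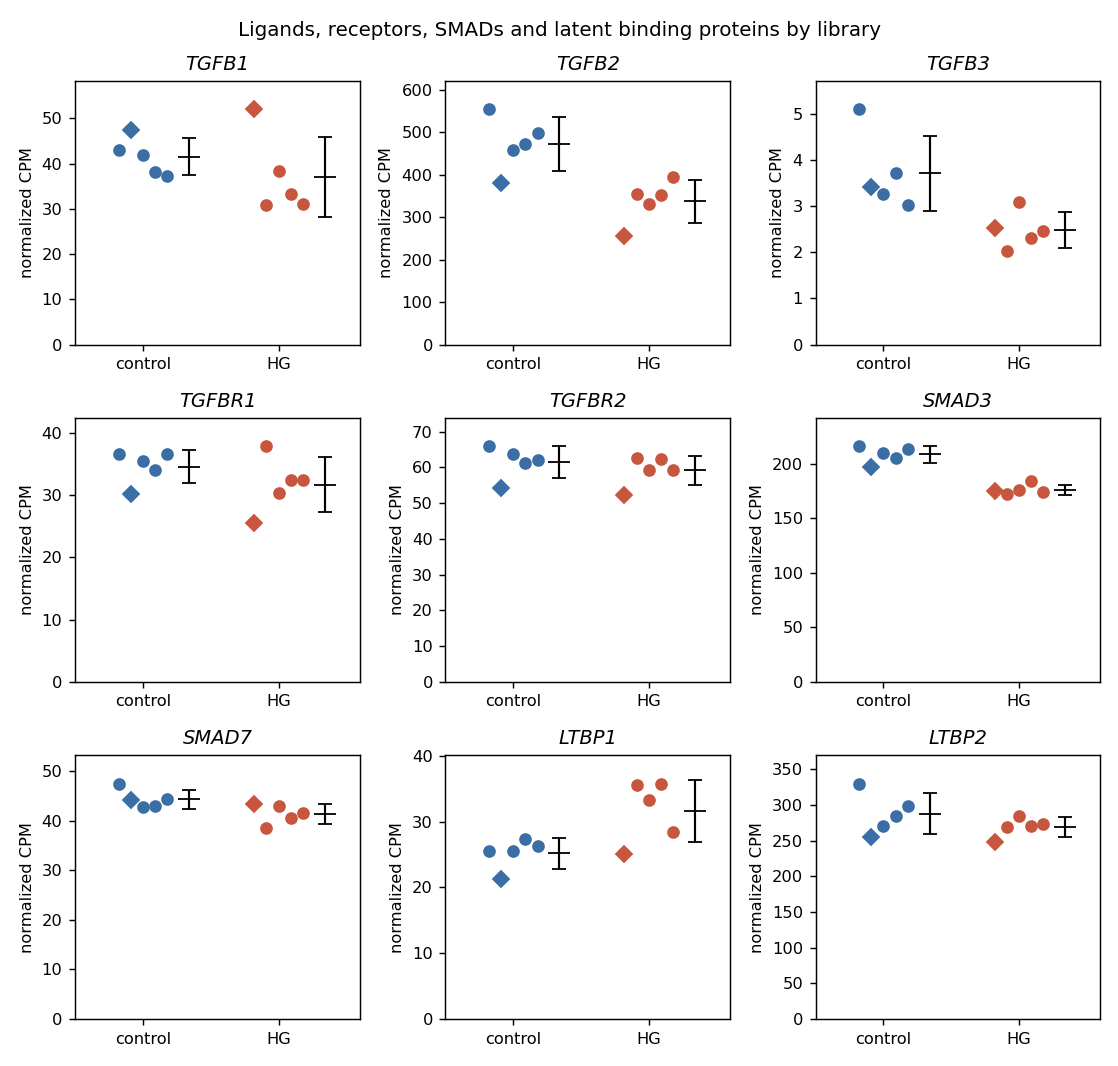
Normalized CPM of the 9 members in each library, with a linear axis from 0 in every panel. Circles are libraries, diamonds are MG_2 and HG_1, and black bars are the mean and SD of 5 libraries. SMAD3 is the member whose groups do not overlap (171.8 to 184.1 against 196.9 to 215.7 CPM).

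TGFB2 was by far the most abundant ligand gene, and it fell. Its gene spans chr1:218346235-218444619 on the plus strand (GRCh38). The control libraries MG_1 to MG_5 had 553.7, 380.7, 457.0, 471.7 and 498.8 CPM, and the HG libraries HG_1 to HG_5 had 256.4, 355.1, 330.0, 351.7 and 393.8 CPM. The groups overlapped only through MG_2, the lowest control library, which lay below HG_5, the highest HG library. The means were 472 ± 63.2 and 337 ± 50.8 CPM (SD, n = 5), a log2 fold change of -0.49 with an SE of 0.12 (edgeR, adjusted p = 0.0194). An exact two-sided permutation test of log2 CPM gave p = 0.0159, where 0.00794 is the smallest p that 5 against 5 libraries allow. Without MG_1 the log2 fold change was -0.42 and was not called (edgeR, adjusted p = 0.0508). Of the exon bases of TGFB2, 26.6% are shared with TGFB2-OT1, a transcript of the same strand with no row of its own.

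TGFB3, the ligand gene with the lowest level, was also lower in the HG group. Its gene lies at chr14:75958099-75982991 on the minus strand. The control libraries had 5.09, 3.41, 3.27, 3.72 and 3.03 CPM and the HG libraries 2.52, 2.04, 3.10, 2.31 and 2.46 CPM. HG_3 was the one HG library above the lowest control library, MG_5. The log2 fold change was -0.57 with an SE of 0.17 and a 95% interval of -0.96 to -0.19 (edgeR, adjusted p = 0.0489). The exact permutation p was 0.0159. These values rest on 76 to 168 counts per library, and the call held in 1 of the 10 fits that left out a library, that without HG_3. Without both HG_1 and MG_2 the log2 fold change of TGFB3 was -0.61 and was not called (edgeR, adjusted p = 0.0575).

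TGFB1, the best known ligand gene, did not pass the test. Its gene lies at chr19:41301587-41353911 on the minus strand. The control libraries had 43.0, 47.3, 41.9, 38.2 and 37.3 CPM and the HG libraries 52.0, 30.9, 38.4, 33.2 and 31.1 CPM. HG_1 was the highest of all 10 libraries, while 3 of the other 4 HG libraries lay below every control library. The log2 fold change was -0.16 with a 95% interval of -0.47 to 0.15 (edgeR, adjusted p = 0.512; exact permutation p = 0.286). Without HG_1 it was -0.31 (edgeR, adjusted p = 0.0329), and without both HG_1 and MG_2 it was -0.26 (edgeR, adjusted p = 0.0373). TGFB1 shares 215 exon bases with HNRNPUL1 on the opposite strand, and whether strand was used in counting was not stated.

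FPKM (fragments per kilobase and per unit of library size) takes transcript length into account, so levels of the ligand genes can be set side by side. In the control group TGFB2 was at 77.7 ± 10.95, TGFB1 at 13.8 ± 1.18 and TGFB3 at 1.00 ± 0.221 FPKM (SD, n = 5). In the HG group the same order held, with 56.2 ± 9.02, 12.4 ± 2.64 and 0.719 ± 0.0966 FPKM. The sum of the 3 ligand genes was between 77.5 and 106.7 FPKM in the control group and between 58.7 and 76.4 FPKM in the HG group. The sums therefore did not overlap, but no test was run on them. TGFB2 alone overlapped in FPKM, with 61.2 in MG_2 and 65.3 in HG_5. MG_2, a library with a GC trend, had the highest TGFB1 of the control group, 15.4 FPKM. TGFB2 made up 83.8% ± 2.86 of that sum in the control group and 80.7% ± 6.08 in the HG group (exact permutation p = 0.365). The share of TGFB1 was 15.1% ± 2.82 and 18.3% ± 6.01 (exact permutation p = 0.349), with 28.5% in HG_1 and 13.7% to 18.7% in the other HG libraries. Without HG_1 the differences were 0.594 percentage points for TGFB1 and -0.54 for TGFB2, against 3.15 and -3.11 with it, and without both HG_1 and MG_2 they were 1.79 and -1.75. The share of TGFB3 was 1.08% and 1.04% (exact permutation p = 0.690). No share passed the test, and the groups overlapped for each of them. TGFB3 in HG_2 had the lowest CPM of the HG libraries (2.04) but 0.762 FPKM, above 3 of the other 4. These 3 shares and the 3 ratios given further on form a family of 6 measures, and the adjusted values of the shares were 0.438, 0.438 and 0.690.

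**Figure D2:**
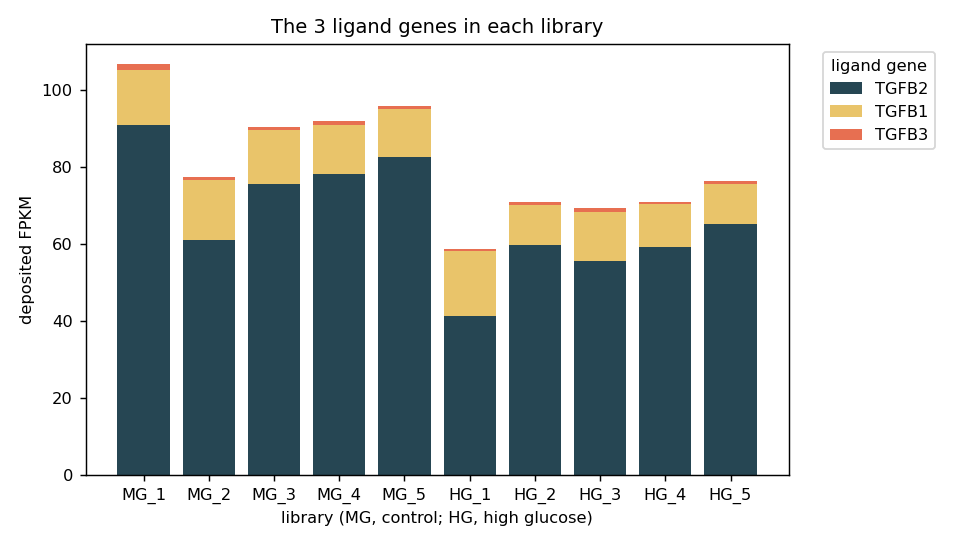
Deposited FPKM of the ligand genes stacked for each library, with the axis from 0. The stack is mostly TGFB2, and every HG stack (58.7 to 76.4 FPKM) is shorter than every control stack (77.5 to 106.7 FPKM). The TGFB2 part alone overlaps between the groups.

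Of the latent binding proteins, LTBP1 was the one member with a positive log2 fold change. LTBP1 lies at chr2:32946972-33399509 on the plus strand. The control libraries had 25.6, 21.2, 25.5, 27.4 and 26.2 CPM and the HG libraries 25.04, 35.6, 33.3, 35.8 and 28.3 CPM. All HG libraries but HG_1 lay above the highest control library. The log2 fold change was 0.33 with an SE of 0.11 and a 95% interval of 0.09 to 0.57, which missed the threshold (edgeR, adjusted p = 0.0667), and the exact permutation p was 0.0476. The call was made by DESeq2 (adjusted p = 0.0278) and by edgeR without HG_1 (adjusted p = 0.0110) or without both HG_1 and MG_2 (adjusted p = 0.00845). LTBP2, a relative that does not bind latent TGF-β and belongs to elastic microfibrils, lies at chr14:74498170-74612378 on the minus strand. Its 330.2, 255.1, 270.0, 284.4 and 299.1 CPM in the control libraries overlapped with 247.5, 269.6, 284.4, 270.1 and 274.1 CPM in the HG libraries. The log2 fold change was -0.10 with a 95% interval of -0.25 to 0.05 (edgeR, adjusted p = 0.410).

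The balance of these 2 genes within a library separated the groups. The log2 ratio of LTBP1 to LTBP2 in FPKM was -3.14, -3.01, -2.89, -2.79 and -2.97 in the control libraries and -2.59, -2.37, -2.54, -2.22 and -2.72 in the HG libraries. Every HG library was above every control library, HG_1 included. The difference of the means was 0.47 (exact permutation p = 0.00794, adjusted over the 6 measures 0.0476).

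The receptor genes did not pass the test. TGFBR2, which binds the ligand, lies at chr3:30606502-30694142 and had 54.2 to 65.9 CPM in the control group and 52.2 to 62.7 CPM in the HG group. Its log2 fold change was -0.05 with a 95% interval of -0.20 to 0.09 (edgeR, adjusted p = 0.664). TGFBR1, the kinase that phosphorylates SMAD3, lies at chr9:99104038-99154192 and had 30.2 to 36.6 CPM in the control group and 25.5 to 37.8 CPM in the HG group. Its log2 fold change was -0.13 with a 95% interval of -0.34 to 0.09 (edgeR, adjusted p = 0.458). For each receptor gene HG_1 was the lowest HG library and MG_2 the lowest control library. Without HG_1 the log2 fold changes were -0.01 for TGFBR2 and -0.05 for TGFBR1, and without both libraries they were -0.05 and -0.10. In FPKM, TGFBR2 was above TGFBR1 in every library. The log2 ratio of TGFBR2 to TGFBR1 was 1.31 ± 0.0785 and 1.37 ± 0.107 (SD, n = 5, exact permutation p = 0.333, adjusted 0.438).

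SMAD3 showed the clearest difference among the members, although it was a small one. SMAD3 lies at chr15:67063763-67195195 on the plus strand. The control libraries had 215.7, 196.9, 209.8, 205.4 and 213.7 CPM and the HG libraries 174.5, 171.8, 175.3, 184.1 and 173.8 CPM. The lowest control library, MG_2, was above the highest HG library, HG_4. The log2 fold change was -0.24 with an SE of 0.04 and a 95% interval of -0.33 to -0.16 (edgeR, adjusted p = 0.00206). The exact permutation p was 0.00794, the smallest possible. The deposited FPKM of SMAD3 did not overlap either, with 28.8 to 45.0 in the control group and at most 27.8 in the HG group. On log2(FPKM + 1) limma gave a larger log2 fold change, -0.37, that was not called (adjusted p = 0.0516). They are not a fixed multiple of the counts, since MG_5 had 45.0 FPKM and MG_1 37.3 FPKM at nearly equal CPM.

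SMAD7, the inhibitory SMAD that competes for the receptor, did not pass the test. SMAD7 lies at chr18:48919853-48952052 on the minus strand. The control libraries had 47.5, 44.2, 42.8, 42.9 and 44.4 CPM and the HG libraries 43.3, 38.5, 43.0, 40.5 and 41.5 CPM. HG_1 and HG_3 reached into the range of the control group. The log2 fold change was -0.10 with a 95% interval of -0.21 to 0.01 (edgeR, adjusted p = 0.228), while the unadjusted exact permutation p was 0.0476. The log2 ratio of SMAD7 to SMAD3 in FPKM was -1.41 ± 0.247 in the control group and -1.15 ± 0.0554 in the HG group (SD, n = 5). The difference of 0.26 had an exact permutation p of 0.0238, which adjusted over the 6 measures was 0.0714. In CPM the same difference was 0.14, and without MG_5 in FPKM it was 0.16.

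**Figure D3:**
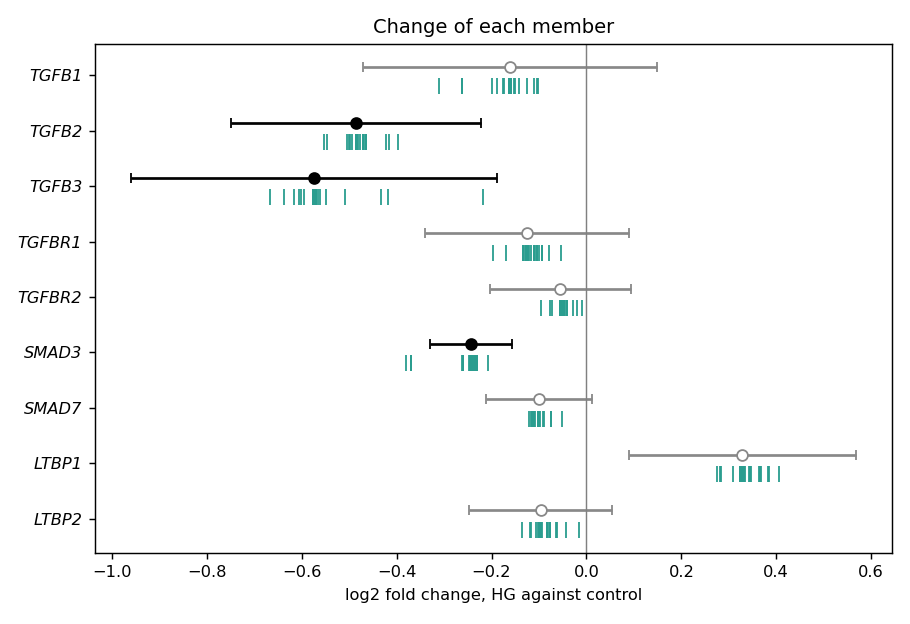
Log2 fold change of each member in HG against control. Circles and bars are the edgeR estimate and its 95% interval, filled black where adjusted p was under 0.05, and green ticks are the alternative settings and fits without a library. In every setting LTBP1 lies above 0 and the other members, called or not, lie below it.

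HG_1 and MG_2 stood at an end of their group for several members. TGFB1, with 63.5% GC in its longest coding transcript, was highest in these 2 libraries. TGFB2, with 38.9% GC, was lowest in HG_1 within the HG group and in MG_2 within the control group. LTBP1, with 51.7% GC, and LTBP2, with 57.2% GC, were likewise lowest in these libraries of each group. When each library's trends on GC content and transcript length were removed, an alternative chosen after seeing the data, the groups no longer overlapped for TGFB2 and TGFB3. In that setting 21.7% of 13538 rows had groups that did not overlap. TGFB2 then had 8.30 to 8.53 log2 CPM in the HG group and 8.80 to 9.01 in the control group. TGFB3 had 1.09 to 1.65 against 1.66 to 2.42 log2 CPM. SMAD3 had 7.41 to 7.55 against 7.66 to 7.70 log2 CPM. LTBP1 was called higher in that fit (log2 fold change 0.37, edgeR, adjusted p = 0.00895), although its groups still overlapped. TGFB1 was not called in it (log2 fold change -0.14, edgeR, adjusted p = 0.154), unlike in the fits without HG_1. SMAD7 and LTBP2 had log2 fold changes of -0.05 and -0.02 in that fit and were not called.

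**Figure D4:**
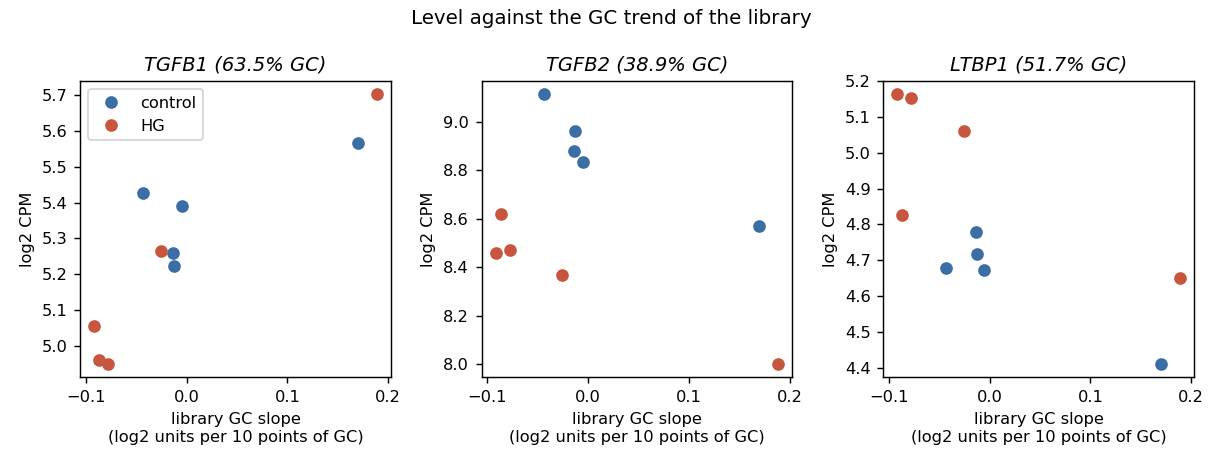
Log2 CPM of TGFB1, TGFB2 and LTBP1 against the GC slope of each library, blue for control and red for HG. The 2 points on the right of each panel are MG_2 (0.170) and HG_1 (0.188), where TGFB1 is highest and TGFB2 and LTBP1 are lowest within their group.

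The 3 members that were lower share a sequence feature in the bases before a transcription start. The promoter windows were the 250 bases before each RefSeq start (GRCh38.p14), 26 windows in all for the 9 members, and 8 short motifs were searched on both strands. The motifs were chosen after the values had been seen, so the matches are a description. The E-box CACGTG, bound by basic helix-loop-helix factors such as USF1 and MYC, was found in a window of TGFB2, of TGFB3 and of SMAD3 and in no window of the other 6 members. Over all 35116 windows 6.34% held it, and 7.73% of 27305 genes had a window with it. The windows are shown with the E-box in capitals, each 5′ to 3′ on the strand of the gene and ending at the base before the start. They are chr1:218345086-218345335 (plus strand), chr14:75983012-75983261 (minus strand) and chr15:67065352-67065601 (plus strand).
TGFB2: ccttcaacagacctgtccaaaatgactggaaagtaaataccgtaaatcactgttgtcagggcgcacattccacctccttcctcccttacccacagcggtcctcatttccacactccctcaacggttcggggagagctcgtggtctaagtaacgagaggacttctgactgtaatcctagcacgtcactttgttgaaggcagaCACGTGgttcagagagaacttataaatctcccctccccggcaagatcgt
TGFB3: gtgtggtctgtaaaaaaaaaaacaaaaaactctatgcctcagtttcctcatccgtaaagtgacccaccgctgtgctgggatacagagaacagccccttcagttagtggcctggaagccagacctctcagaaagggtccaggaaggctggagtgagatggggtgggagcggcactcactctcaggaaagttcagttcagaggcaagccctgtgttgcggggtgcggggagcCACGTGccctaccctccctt
SMAD3: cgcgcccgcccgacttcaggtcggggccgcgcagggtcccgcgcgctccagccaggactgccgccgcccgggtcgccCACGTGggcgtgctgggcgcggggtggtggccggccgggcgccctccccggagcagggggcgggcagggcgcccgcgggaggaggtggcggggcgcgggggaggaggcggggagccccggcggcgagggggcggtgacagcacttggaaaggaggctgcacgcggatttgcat
The E-box lay 49 to 44 bases before the start of TGFB2, 20 to 15 bases before that of TGFB3 and 173 to 168 bases before that of SMAD3. These RefSeq starts are not the ends of the GENCODE genes given above, since that of TGFB2 lies 899 bases and that of TGFB3 20 bases before the gene, and that of SMAD3 lies 1839 bases inside it. SMAD3 had 5 windows, TGFB3 had 2 and TGFB2 had 1, and the E-box was in 1 window of each. The windows differed in GC content, with 50.4%, 54.8% and 80.8%. The palindromic SMAD element GTCTAGAC was in no member window and in 0.182% of all windows. The shorter CAGAC contained in many SMAD binding sites was found for 6 of the 9 members, against 42.8% of all genes. The cyclic AMP response element TGACGTCA was found in LTBP1 alone among the members and in 2.03% of all genes. The AP-1 element TGANTCA was found in SMAD3 alone and in 8.06% of all genes. The CCAAT box was found for 4 members, the GC box GGGCGG for 5 and the TEAD element GGAATG for TGFB2 and TGFBR1. Of all genes with a window, 37%, 46.2% and 14.3% had them. The members had more windows per gene (26 for 9) than all genes (35116 for 27305), so shares by gene are not like for like. By window, CAGAC was in 13 of the 26 member windows, the CCAAT box in 9, the GC box in 8 and the TEAD element in 2. Of all windows, 38%, 32%, 42.6% and 11.9% held them.

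The other genes of the pathway were read from lists written with earlier results of these data known. Over 6 lists without targets, 67 genes were tested, of which 4 were higher and 5 were lower, with a median log2 fold change of -0.04. These are 5.97% and 7.46%, near the 7.62% and 7.80% of all rows tested, so the calls that follow describe single genes. The latent complex and its activation held 5 of these calls among 14 tested genes (2 higher, 3 lower, median -0.25), against 3 higher and 5 lower by DESeq2 and at an unadjusted p under 0.05. All rows gave 9.95% higher and 10.4% lower by DESeq2, and 14.1% and 14.4% at that unadjusted p. THBS1, which encodes thrombospondin-1, an activator of latent TGF-β, fell from 1128 to 371 mean CPM (log2 fold change -1.61, SE 0.19, edgeR, adjusted p = 0.000446). FBN1, the fibrillin that anchors latent complexes in microfibrils, fell from 259 to 156 mean CPM (log2 fold change -0.73, edgeR, adjusted p = 0.00361). LTBP3, a further latent TGF-β binding protein, fell from 430 to 312 mean CPM (log2 fold change -0.46, edgeR, adjusted p = 0.00555), while its relative LTBP1 had a positive log2 fold change that did not pass the test. NRROS, a cell-surface anchor of latent TGF-β1, rose from 2.12 to 3.48 mean CPM (log2 fold change 0.71, edgeR, adjusted p = 0.0335), a call that was lost in 7 of the 10 fits that left out a library. ITGB5, an integrin subunit, was the other gene of this list that rose.

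None of 9 tested co-receptors and other type I and II receptors passed edgeR's test, nor did any of 9 non-SMAD transducers, with medians of -0.03 and -0.04. At an unadjusted p under 0.05 and by DESeq2 the receptors still gave 0 calls, and the transducers gave 2, XIAP (log2 fold change 0.36) and DAXX (-0.21). All rows gave 14.4% lower and 14.1% higher at an unadjusted p under 0.05, and 10.4% lower and 9.95% higher by DESeq2. Of 12 other SMADs and partners, SMAD9, a transducer of bone morphogenetic protein signals, rose from 15.1 to 20.0 mean CPM (log2 fold change 0.41, edgeR, adjusted p = 0.00736). CREBBP of the same list was called lower by DESeq2 and at an unadjusted p under 0.05, but not by edgeR (log2 fold change -0.26, adjusted p = 0.0559). SMAD2 and SMAD4, the partners of SMAD3, had log2 fold changes of 0.09 and -0.07 (edgeR, adjusted p = 0.362 and 0.665). Among 17 inhibitors and ubiquitin ligases, 5 were lower and 1 was higher at an unadjusted p under 0.05, and 3 and 0 by DESeq2. The shares of all rows by these rules are those given above. By edgeR 2 of the 17 were lower and 0 were higher, where all rows gave 7.80% and 7.62%. The 2 were TGIF2, a corepressor of SMAD complexes (log2 fold change -0.37, edgeR, adjusted p = 0.0143), and PMEPA1, a target gene that limits SMAD activation (log2 fold change -0.29, edgeR, adjusted p = 0.0143). SKIL, a feedback corepressor, had a log2 fold change of -0.22 (edgeR, adjusted p = 0.222), which was called without both HG_1 and MG_2 (-0.21, adjusted p = 0.0472) and with the trends removed (-0.25, adjusted p = 0.00347). Of 6 activin ligands and follistatins, INHA, the inhibin alpha subunit gene, rose from 2.33 to 4.16 mean CPM (log2 fold change 0.84, edgeR, adjusted p = 0.0266), a call that was lost in 5 of the 10 fits that left out a library.

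Known target genes of TGF-β held more lower than higher calls. Of 39 listed, 33 were tested, and 18 were lower, 3 were higher and 12 did not pass the test. Their median log2 fold change was -0.31, and 18 of the 33 had groups that did not overlap. The lower genes were 54.5% of those tested, against 7.80% of all rows, the higher genes were 9.09%, against 7.62%, and those without overlap were 54.5%, against 13.6%. This list too was written with earlier results of these data known, so these shares are a description. The counts were 19 lower and 3 higher by DESeq2, where all rows gave 10.4% and 9.95%. At an unadjusted p under 0.05 they were 21 and 4, where all rows gave 14.4% and 14.1%. The number lower by edgeR was 13 to 18 when a library was left out. CCN2, connective tissue growth factor, had 336.9 to 504.7 CPM and 145.6 to 171.5 CPM (log2 fold change -1.29, SE 0.11, edgeR, adjusted p = 6.97e-05). Every HG library lay below every control library for CCN2.

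With CCN2, the 4 largest changes in the list were those of ELN, COL1A1 and TAGLN. COL1A1, a fibrillar collagen chain, fell from 45.3 to 18.1 mean CPM (log2 fold change -1.33, edgeR, adjusted p = 2.86e-05). ELN, elastin, fell from 2.08 to 0.683 mean CPM (log2 fold change -1.60, SE 0.39, edgeR, adjusted p = 0.0190). The call of ELN rests on 11 to 127 counts per library and was lost without MG_1 (adjusted p = 0.0507, edgeR) and without HG_3 (adjusted p = 0.0539). TAGLN, transgelin of the actin cytoskeleton, fell from 184 to 74.5 mean CPM (log2 fold change -1.30, edgeR, adjusted p = 0.000250). TGFBI, a secreted matrix protein induced by TGF-β, fell from 3390 to 2816 mean CPM (log2 fold change -0.27, edgeR, adjusted p = 0.00592). FN1, fibronectin, had 1283 and 1016 mean CPM, which did not pass the test (log2 fold change -0.34, edgeR, adjusted p = 0.0971). FN1 was called lower by DESeq2 (adjusted p = 0.0358) and by edgeR without MG_2 (-0.41, adjusted p = 0.0330), without both HG_1 and MG_2 (-0.33, adjusted p = 0.0110) and with the trends removed (-0.28, adjusted p = 0.0325). The 3 genes that rose were CDKN1A, HMGA2 and BHLHE40. CDKN1A, the cell cycle inhibitor p21, rose from 513 to 705 mean CPM (log2 fold change 0.46, SE 0.07, edgeR, adjusted p = 0.00183). Many of these genes also answer to other pathways, and the part of the ligands and SMAD3 in their change was not tested.

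**Figure D5:**
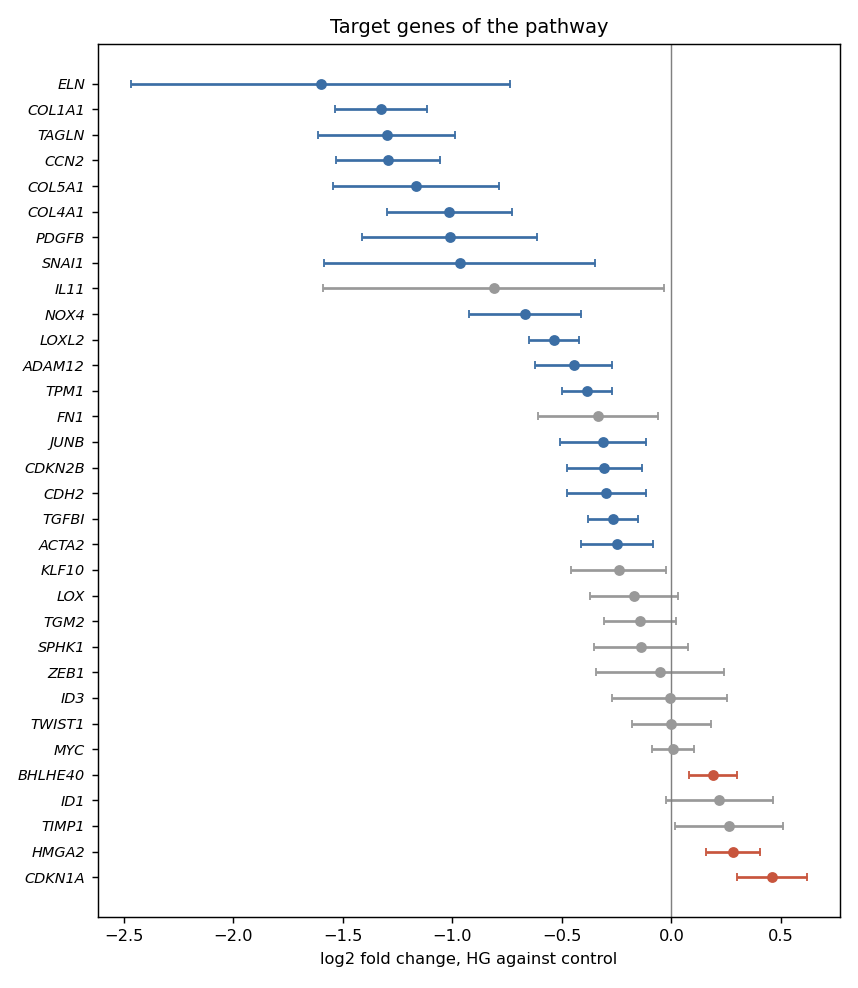
Log2 fold change (HG against control) of 32 of the 33 tested target genes with 95% intervals from edgeR. Blue marks 17 lower genes, red the 3 higher ones and grey the 12 that did not pass the test, with ELN (-1.60) and CDKN1A (0.46) at the ends.

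The genes whose pattern over the 10 libraries was most like that of a member were found among 12364 genes by the root mean squared difference of mean-centred log2 CPM. For TGFB3, the member with the largest change, they were MAGED4B, FZD1, BMAL1, LMO4 and P3H2, at 0.164 to 0.168 log2 units against a median of 0.394 over all genes. For TGFB2 and SMAD3 the same measure was read after their values had been seen. PDE1C, CALD1, LRATD2, PHLDB2 and ENC1 lay within 0.0425 to 0.0544 log2 units of TGFB2, against a median of 0.352 over all genes. LRP1, CAMK2G, EXTL3, IPO9 and CAPN2 lay within 0.0229 to 0.0379 log2 units of SMAD3, against a median of 0.210. All points share the same libraries and their GC trends, so likeness is a description.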

How the data were processed

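RNA-seq libraries of ARPE-19 cells were prepared from total RNA with the VAHTS Universal V6 kit. The submitters' processing notes name fastp 0.20.1, HISAT2 2.2.1 and the build GRCh38. The counting program, annotation and use of strand are not given in the sources used here. The authors deposited whole-number read counts per gene, without normalization, and a table of FPKM values, a unit per transcript length and library size. How the authors computed FPKM is not given in the sources used here, and they are not a fixed multiple of the deposited counts. Counts were tested in R 4.3.3 with edgeR 4.0.16 (default filter on low counts, TMM, quasi-likelihood test, group as the only term, Benjamini-Hochberg adjustment over 14936 rows). Log2 CPM used a prior count of 2. Standard errors were the log2 fold change divided by the root of F. Shares and ratios used the deposited FPKM and a two-sided exact permutation test of the difference of means (scipy 1.17.1). Alternatives were DESeq2 1.42.0, scaling by RLE, scaling by library size alone, omission of the filter, a filter of at least 10 counts in every library, limma 3.58.1 on log2(FPKM + 1) and log2(FPKM + 0.1) and with a mean FPKM of at least 1, 1 surrogate variable from sva 3.50.0, both libraries with a GC trend left out, and each library left out in turn. Removal of lowess trends (span 0.3) on GC content and length, and a fit on the 13538 rows with a GC value, were added after seeing the data. The steps were tested on simulated counts.

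The 20 pairs of libraries within a group differed by 13.6 to 78.6 in chi-square per gene, so no library was a copy of another. Gene positions and GC content come from GENCODE release 29 on GRCh38 and promoter windows from RefSeq. The members and lists were chosen with earlier results of these data known. From each pathway list the text names up to 4 called genes, taken by the size of the log2 fold change, with a mean of at least 1 CPM, and CCN2, TGFBI, FN1, SKIL, PMEPA1, COL1A1 and CDKN1A whatever their result. Counts of target genes include 1 gene whose values are not reported here. Like genes follow the called member with the largest change. Other names (ITGB5, SMAD2, SMAD4, CREBBP, XIAP, DAXX, HMGA2, BHLHE40, markers and genes like TGFB2 or SMAD3) were chosen after their values were seen.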

Additional observations from a re-analysis of the deposited data

Results flagged for a closer look

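Of 32 groups of 5 values checked, 2 had a library that stood apart from the others of its group by Dixon's test, where chance alone would give 1.6. SMAD3 was at 184.1 CPM in HG_4, against 171.8 to 175.3 CPM in the other HG libraries, a gap of 0.713 of the whole range. That library still lay below every control library. The log2 ratio of TGFBR2 to TGFBR1 was 1.17 in MG_5, against 1.32 to 1.35 in the other control libraries, a gap of 0.801 of the range.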

How the results depend on the processing

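Every member kept the sign of its log2 fold change in every setting run. No paired analysis was possible because the labels number the control samples and letter the HG samples. The count of members lower (3) was 0 with limma on log2(FPKM + 1) and 1 with limma on log2(FPKM + 0.1), and 1 to 3 when a library was left out. The count of members higher (0) was 1 with DESeq2, with 1 surrogate variable, with both GC-trend libraries left out and with the GC and length trends removed, and 0 to 1 without a library. TGFB2 was not called by limma on all genes (-0.47 on either FPKM scale, adjusted p = 0.0550 and 0.0524), was called at a mean FPKM of at least 1 (adjusted p = 0.0298) and was at -0.55 to -0.40 without a library. TGFB3 was not called with library size alone (-0.56), no filter (-0.57), limma (-0.22 and -0.42) or both GC-trend libraries left out (-0.61), was at -0.67 to -0.43 without a library, and had no value at a mean FPKM of at least 1. SMAD3 was not called by limma on log2(FPKM + 1) (-0.37, adjusted p = 0.0516). TGFB1 was called lower with 1 surrogate variable (-0.26) and both libraries left out (-0.26), and was at -0.31 to -0.10 without a library. LTBP1 was called with DESeq2 (0.33), 1 surrogate variable (0.38), both libraries left out (0.35) and trends removed (0.37), and was at 0.27 to 0.41 without a library. The share of TGFB3 differed by -0.0953 to 0.0122 percentage points without a library and changed sign without MG_1 (0.0122) and HG_5 (0.000768). All genes called (2303) numbered 4923, 4035 and 3965 with 1 surrogate variable, both libraries left out and trends removed, and the other pathway genes called (9) numbered 28, 21 and 20, with 16 for DESeq2. Target genes lower numbered 13 to 22. Of the comparisons for other named genes, 315 kept a call, 36 stayed without one, 14 lost it (NRROS, INHA and ELN without a library) and 8 gained it (FN1 and SKIL). The cause of these changes was not tested. TGFB3 rests on 76 to 168 counts per library, the fewest of the members.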
